A study of Mus musculus with 6 samples.

Results

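The pA-VMO arrays were set directly against the 5'ss-VMO arrays, 4 of the 6 arrays of the series, to ask how gene expression differs between reagents designed to push the same transcript in opposite directions. Both reagents are vivo-morpholinos (VMO), synthetic antisense oligomers with an added delivery group, which mask a target site of an RNA in vivo. Their target is the transcript of Pdgfra, which encodes platelet-derived growth factor receptor alpha and can end early at a polyadenylation site inside an intron. The pA-VMO covers polyadenylation sites and was meant to favour the full-length receptor mRNA, and the 5'ss-VMO covers a 5' splice site and was meant to favour the shortened form. All probe sets with exactly 1 gene symbol were used, with the brightest probe set kept for a gene that has several, which gave 19938 genes, of which 14953 were bright enough to be tested.

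RNA came from FAPs, fibro/adipogenic progenitors that form the stroma of muscle, taken from wild-type male C57Bl/6 mice aged 8 to 12 weeks. In every group the tibialis anterior muscles had first received 30 µL of 50% glycerol, a chemical injury that leaves fat and scar. VMO followed 3 days later, and cells were collected 2 days after the VMO, so no uninjured muscle enters any group. The groups were control VMO, pA-VMO and 5'ss-VMO, with 2 arrays each, and each array held the cells of 4 pooled mice. Control arrays had no weight in the contrast, but they are given beside each result because they show on which side of control a difference lies. The labels name the cells but not the sort that gave them.

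PDGF receptor alpha is a receptor tyrosine kinase that drives growth and matrix production in stromal cells, and FAPs are the main cells of adult muscle that carry it. After injury FAPs divide, secrete signals for muscle stem cells and are then cleared or turn into matrix-producing or fat-storing cells, while macrophages and other leukocytes fill the tissue. Stromal cells also sense foreign nucleic acid and interferon, and answer with a shared set of antiviral genes.

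Values are log2 levels, and every difference is pA-VMO minus 5'ss-VMO, so a negative value means a lower level with pA-VMO. Replicate arrays differed from each other with an SD over genes of 0.124 for pA-VMO, 0.129 for 5'ss-VMO and 0.130 for control VMO. The median standard error of a difference was 0.074. The smallest p of an exact permutation test on 2 and 2 arrays is 0.333, so calls rest on limma, which shares the spread over all genes. Calls were made two-sided, where the p adjusted by Benjamini-Hochberg was under 0.05. By this rule 9 of 14953 genes were called (0.0602%), 7 lower with pA-VMO (0.0468%) and 2 higher (0.0134%). At an unadjusted p under 0.05 there were 1063 lower genes (7.11%) and 1318 higher ones (8.81%), where 747.7 in all would pass by the threshold alone. Both arrays of one reagent lay beyond both arrays of the other in 3539 genes that were lower (23.7%) and in 3810 that were higher (25.5%), and these shares are the background for every such count below. In RNA from a whole cell population, fewer cells of a type and less RNA per cell cannot be told apart.

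Pdgfra itself did not separate the reagents. Its level was 11.29 and 11.32 with pA-VMO, 11.31 and 11.29 under 5'ss-VMO, and 11.37 and 11.24 with control VMO. The ranges overlap fully, and the difference was 0.01 ± 0.07 (log2, SE, n = 2 arrays per group, limma adjusted p = 0.979), with a 95% interval from -0.15 to 0.16. The single probe set of this gene on the array sums probes along the transcript and does not read the isoforms apart, so it checks neither reagent. The partner receptor gene Pdgfrb lay at -0.05 (adjusted p = 0.775) and the decoy-like relative Pdgfrl at -0.12 (adjusted p = 0.422). Among the ligands, Pdgfa, the main ligand of the alpha receptor, lay at -0.03 and Pdgfb at 0.05. Pdgfc, another alpha receptor ligand, read 8.04 and 8.20 with pA-VMO against 8.31 and 8.59 with 5'ss-VMO, a difference of -0.33 ± 0.11 that did not pass (adjusted p = 0.213). Pdgfd lay at -0.22 (adjusted p = 0.278), with both control arrays above all 4 others.

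Genes that report receptor tyrosine kinase signalling were also close to each other with the reagents. Of the 18 feedback genes tested, 0 were called, 6 had separated arrays with lower values under pA-VMO and 1 with higher values, and the median difference was -0.02, against 0.00 over all genes tested. Etv1, a transcription factor induced by growth factor signalling, had the largest difference of the list at -0.31 ± 0.09 (adjusted p = 0.168). Dusp6, a phosphatase that shuts off ERK, read 8.63 and 8.72 with pA-VMO and 8.86 and 8.92 with 5'ss-VMO, a difference of -0.21 (adjusted p = 0.194). The ERK inhibitor Spry1 lay at -0.16 and Phlda1 at -0.10.

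Of the 7 genes called lower with pA-VMO, those with the smallest p were Ifi208 and Ifi206 of the Ifi200 family, interferon-inducible proteins that bind DNA and whose genes sit side by side on chromosome 1. Ifi208 read 6.37 and 6.59 with pA-VMO and 7.70 and 7.87 with 5'ss-VMO, while control VMO gave 6.56 and 6.38. The pA-VMO and control arrays overlap and both 5'ss-VMO arrays stand above them. Ifi208 was lower with pA-VMO by 1.30 ± 0.10 (log2, SE; 2.46-fold; limma adjusted p = 0.00533), and it was called under all 13 alternative settings, including each of the 6 that left out 1 array. Ifi206 read 6.38 and 6.50 with pA-VMO, 7.23 and 7.18 under 5'ss-VMO, and 6.13 and 6.16 with control. Here the control arrays lie below pA-VMO, which lies below 5'ss-VMO. The difference of Ifi206 was -0.77 ± 0.07 (1.70-fold, adjusted p = 0.00677), called in 4 of the 6 settings without 1 array and lost without pA-VMO replicate 1 (adjusted p = 0.0767) or 5'ss-VMO replicate 1 (adjusted p = 0.0803).

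Of the 7 Ifi200 genes tested, which span 173468485 to 174031755 of chromosome 1 in GRCm38.p6, 2 were called, and 4 had separated arrays and an unadjusted p under 0.05, all lower with pA-VMO. Ifi213 (6.14 and 6.48 against 6.95 and 6.88) and Ifi209 (5.40 and 5.57 against 5.93 and 6.19) lay at -0.60 and -0.57 and did not pass (adjusted p = 0.0926 and 0.0831). Control arrays of both genes were below the pA-VMO arrays. The other members, Ifi203, Ifi207 and Ifi205, lay at -0.10, -0.05 and -0.02 with overlapping arrays. The family thus divides between 4 members that separate the reagents, 2 of them called, and 3 that do not. The division follows brightness. Mean levels over the 6 arrays ran from 5.53 (Ifi209) to 6.91 (Ifi208) among the 4, and the other 3 were brighter. The control mean of Ifi209 (5.05) lies below the brightness floor of 5.209. The part of signal level in this division was not tested. Paralogs this close can share probes, so the share of each gene in a difference is uncertain.

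The upstream sequence of the genes that were lower with pA-VMO is shown because most of it carries the core of the interferon-stimulated response element, the site at which interferon-activated transcription factors bind. The core was searched as GAAANNGAA on both strands in the 250 bases before each transcript start of the RefSeq promoter table (GRCm38.p6), in which all 7 called lower genes have an entry. It was found in 5 of these 7 genes (71.4%), namely Ifi208, Ifi206, Phf11a, Ifit3b and Saa3, and not in Lrrn1 or Ms4a4c. Among the 11784 tested genes with an entry, 859 held it (7.29%), as did 7.13% of all promoters in the table. Among the genes at an unadjusted p under 0.05 the share was 12.7% for those lower with pA-VMO and 7.04% for those higher. The STAT core TTCNNNGAA was found in 0 of the 7 genes and in 7.03% of tested genes. A match is only a run of letters, and no binding was measured. The windows below are written 5′ to 3′ on the gene's strand, with the element core in capitals. Those of Ifi208 (chr1:173673567-173673626, plus strand) and Ifi206 (chr1:173491339-173491398, minus strand) have 60 bases and lie just outside the annotated gene. The others have 30 bases and lie upstream of one transcript start. That of Ifi213 (chr1:173599326-173599355, minus strand) crosses the end of the annotated gene span, and the rest lie inside that span, those of Phf11a (chr14:59297532-59297561, minus strand), Ifit3b (chr19:34607813-34607842, plus strand) and Saa3 (chr7:46715782-46715811, minus strand).
Ifi208: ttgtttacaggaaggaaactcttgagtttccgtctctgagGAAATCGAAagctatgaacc
Ifi206: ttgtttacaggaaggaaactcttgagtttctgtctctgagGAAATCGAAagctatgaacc
Ifi213: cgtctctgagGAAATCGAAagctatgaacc
Phf11a: cacatttagaGAAAAAGAAactagaaccta
Ifit3b: tactttcctcTTCCCTTTCacaaacactga
Saa3: gttatcttctGAAAGAGAAattatgggtaa

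The windows of Ifi208 and Ifi206 share 59 of 60 bases and differ by C31T, counted from 1 at the 5′ end with the base of Ifi208 first. Over the 250 upstream bases the pair shares an unbroken run of 182 letters, and Ifi208 and Ifi213 share one of 135. The core was found in 6 of the 7 tested Ifi200 genes, so its presence does not mark which members separated the reagents. Ifit3b and its neighbour Ifit3 share a run of 169 letters, and their 30-base windows are identical.

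Ifit3b, Phf11a, Ms4a4c and Lrrn1 were also called lower with pA-VMO. Ifit3b, an antiviral RNA-binding protein of the Ifit family, read 6.58 and 6.84 with pA-VMO, 7.40 and 7.47 under 5'ss-VMO and 6.63 and 6.78 with control (difference -0.73 ± 0.09, 1.66-fold, limma adjusted p = 0.0433). Phf11a, a PHD finger gene, read 5.83 and 5.96 against 6.65 and 6.59, with control at 5.95 and 5.69 (difference -0.73, adjusted p = 0.0433). In both genes pA-VMO overlaps control and 5'ss-VMO stands apart. Ms4a4c, a membrane protein of the Ms4a family expressed in leukocytes, read 6.48 and 6.43 against 7.18 and 7.03, with control lower than either at 6.06 and 6.10 (difference -0.65 ± 0.07, adjusted p = 0.0249). Lrrn1, a leucine-rich repeat membrane protein, read 5.17 and 5.01 against 5.85 and 5.77 (difference -0.72 ± 0.08, adjusted p = 0.0212). Its control and pA-VMO means lie below the brightness floor of 5.209, so it was tested only through its 5'ss-VMO arrays. These calls rest on the full set of arrays. Phf11a was called only without either control array, and its adjusted p rose to between 0.0659 and 0.223 without an array of a reagent. Ifit3b was called only without pA-VMO replicate 2, with 0.0865 to 0.169 otherwise. Ms4a4c and Lrrn1 were called only without 5'ss-VMO replicate 2, with 0.0651 to 0.128 and 0.0509 to 0.113 otherwise. All 4 kept their sign throughout.

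**Figure D1:**
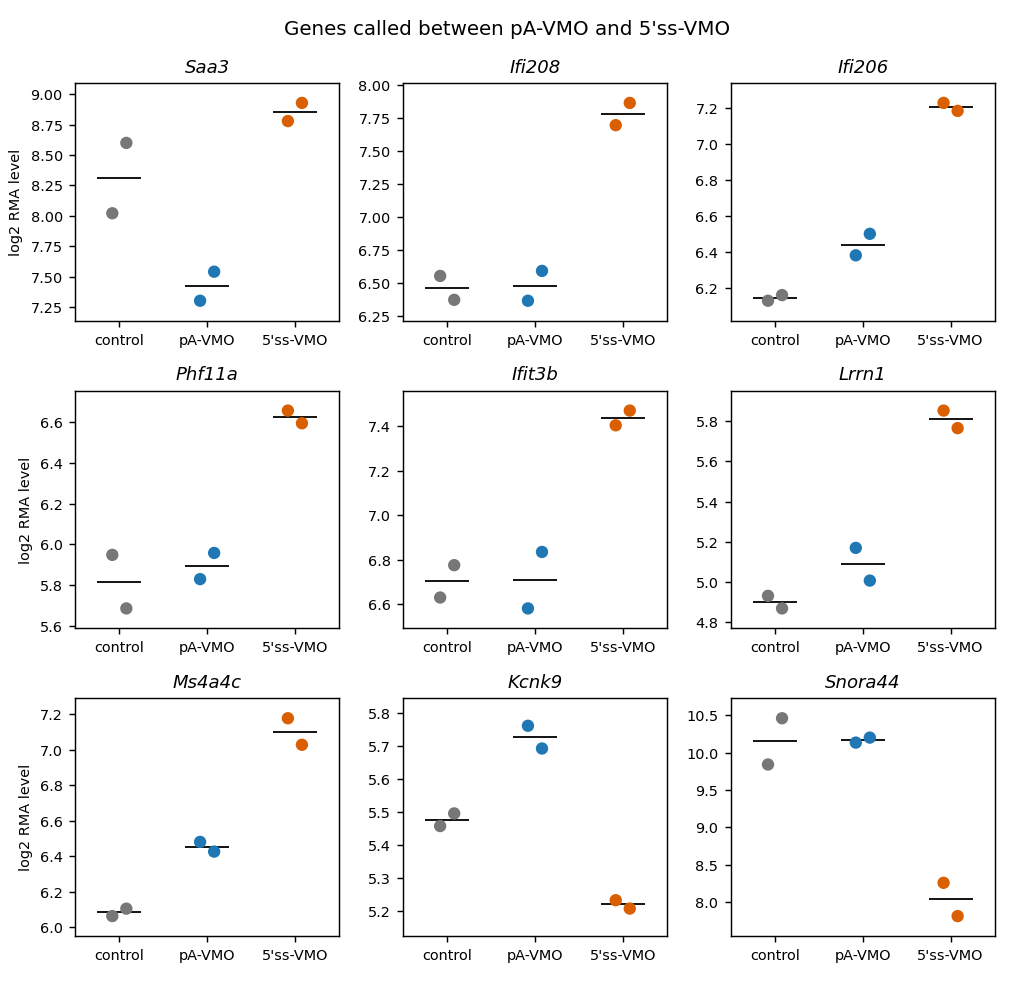
Log2 level (vertical axes, own range per gene) of the 9 called genes on each array (points), with the group mean (bar), for control VMO, pA-VMO and 5'ss-VMO. In Ifi208, Phf11a, Ifit3b and Snora44 the pA-VMO arrays sit with control and the 5'ss-VMO arrays stand apart, while in Saa3 and Kcnk9 the control arrays sit between the reagents.

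Saa3, an acute-phase serum amyloid A gene induced by inflammatory cytokines, had the largest difference of any protein-coding gene. It read 7.30 and 7.54 with pA-VMO, 8.78 and 8.93 under 5'ss-VMO, and 8.02 and 8.60 with control VMO. No group overlaps another, and control lies between the reagents. The difference was -1.43 ± 0.16 (log2, SE; 2.70-fold, limma adjusted p = 0.0249). Saa3 was called in 3 of the 6 settings without 1 array, and not without pA-VMO replicate 1 (adjusted p = 0.141), 5'ss-VMO replicate 1 (0.113) or 5'ss-VMO replicate 2 (0.0659). Lcn2, an acute-phase iron-carrier protein named here after its values were seen, read 7.16 and 7.18 against 7.89 and 7.77, with control at 7.60 and 8.05, and did not pass (-0.65, adjusted p = 0.0718).

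Beyond the called genes, the antiviral effector list leaned one way. This and the other gene lists were chosen with earlier results of these data known, so their counts describe the data and are no independent test. Of 29 interferon-stimulated effectors tested, 1 was called (Ifit3b), 27 had separated arrays with lower values under pA-VMO, 24 of them at an unadjusted p under 0.05, and the median difference was -0.27. Usp18, which restrains interferon signalling, read 8.58 and 8.67 against 9.10 and 9.07 (-0.46 ± 0.07, limma adjusted p = 0.0626). Oas2, which makes a second messenger on sensing viral RNA, read 8.13 and 8.22 against 8.62 and 8.63 (-0.45, adjusted p = 0.0626). The ligase gene Herc6 lay at -0.47 (adjusted p = 0.0626). Smaller values were found for the abundant Bst2 (-0.26), Ifit3 (-0.40) and Ifitm3 (-0.11), and Ifit1 lay at -0.08 (adjusted p = 0.681).

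The 1 effector on the other side was Ifi27, a mitochondrial interferon-inducible protein. Ifi27 read 8.65 and 8.49 with pA-VMO, 8.14 and 8.16 under 5'ss-VMO and 8.78 and 8.84 with control, so its order of groups mirrors that of Oas2 (difference 0.42 ± 0.07, limma adjusted p = 0.0687). Its relative Ifi27l2a lay at -0.29 (adjusted p = 0.0991). With pA-VMO or 5'ss-VMO arrays left out singly, 14 to 20 of the 29 effectors were lower at an unadjusted p under 0.05 (48.3% to 69.0%), against 4.88% to 6.11% of all genes, and the median stayed between -0.31 and -0.24.

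Related interferon lists gave the same picture in smaller numbers. Of the 9 interferon-inducible GTPases tested, which attack vacuoles of intracellular microbes, 8 had separated arrays with lower values under pA-VMO, and the median was -0.40 with 0 called. Gbp4 read 6.71 and 7.06 against 7.54 and 7.59 (-0.68 ± 0.14, limma adjusted p = 0.083), and Gbp3 read 9.81 and 9.95 against 10.30 and 10.26 (-0.40, adjusted p = 0.0687). Of 13 nucleic acid sensors, 9 had separated arrays on the lower side and 2 on the higher, with a median of -0.21. The sensor Zbp1 read 9.28 and 9.40 against 9.72 and 9.67 (-0.36, adjusted p = 0.0718), and the RNA helicase Dhx58 lay at -0.33 (adjusted p = 0.0991). The DNA sensor Cgas had overlapping arrays (-0.23, adjusted p = 0.453).

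Upstream in the pathway the values were more mixed. Of 18 interferon regulators, receptors and STATs, 9 had separated arrays on the lower side, 1 on the higher, and the median was -0.06. Stat2, a subunit of the complex that binds the response element, read 8.85 and 8.86 against 9.18 and 9.27 (-0.37 ± 0.07, limma adjusted p = 0.0687). Irf7 lay at -0.29 and Irf9 at -0.21 (adjusted p = 0.138 and 0.176). The receptor genes Ifnar1 and Ifnar2 lay at 0.03 and -0.02, and the kinases Jak1 and Tyk2 at 0.08 and -0.03, all with overlapping arrays. Among 16 antigen presentation genes, 9 had separated arrays on the lower side and the median was -0.14. H2-Ab1, an MHC class II chain, lay at -0.35 and the immunoproteasome subunit Psmb9 at -0.27 (adjusted p = 0.152 and 0.156), while B2m lay at -0.03.

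**Figure D2:**
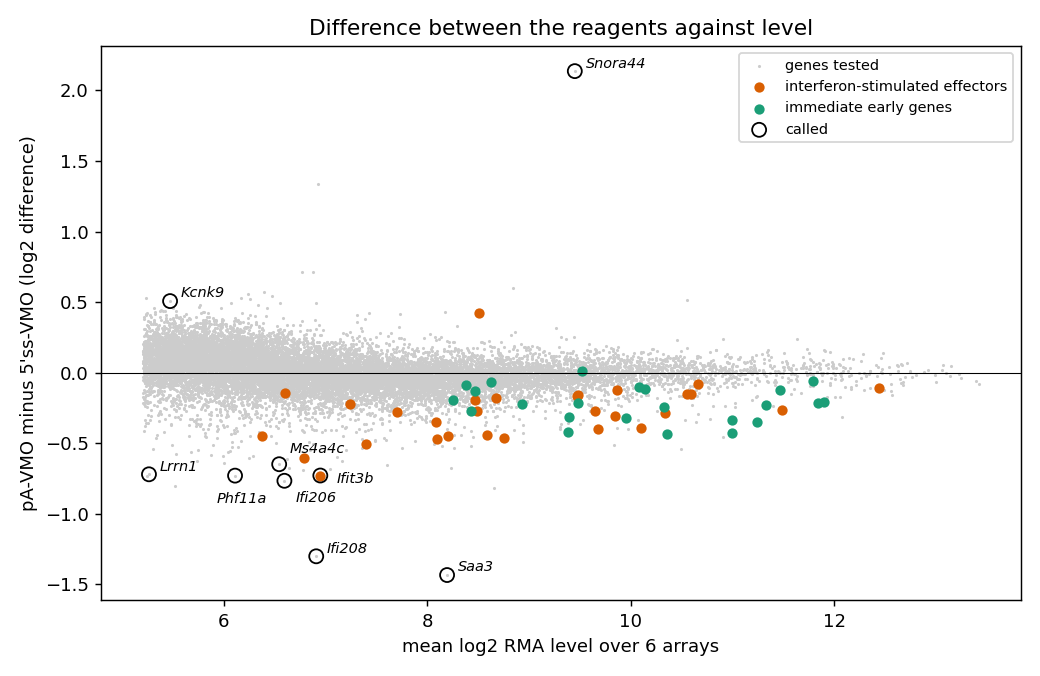
Difference pA-VMO minus 5'ss-VMO (log2, vertical) against the mean level over 6 arrays (log2, horizontal) for 14953 genes (grey), with interferon-stimulated effectors, immediate early genes and the 9 called genes marked. Members of both marked lists lie mostly below 0 at all levels, the effector above 0 is Ifi27, and of the called genes Saa3 and Snora44 have the highest levels.

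Chemokines and cytokines leaned the same way with more exceptions. Of 32 tested, 0 were called, 17 had separated arrays on the lower side and 5 on the higher, with a median of -0.14. Ccl8, a monocyte attractant, read 8.21 and 8.20 with pA-VMO, 8.84 and 8.61 under 5'ss-VMO and 8.35 and 8.34 with control (-0.52 ± 0.08, limma adjusted p = 0.0626). The interferon-inducible chemokines Cxcl11 and Cxcl9 lay at -0.61 and -0.31 (adjusted p = 0.0687 and 0.0921). Il6 read 10.66 and 10.55 against 10.98 and 10.88, with control at 10.72 and 10.87 (-0.33, adjusted p = 0.113). Ccl9 lay at 0.33 (adjusted p = 0.201), and the FAP cytokine Il33 at 0.16 (adjusted p = 0.394).

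Immediate early genes, transcription factors and regulators that respond to stimuli and to handling within minutes, also leaned toward lower values with pA-VMO. Of 23 tested, 0 were called, 21 had separated arrays with lower values under pA-VMO and 0 with higher, 15 were lower at an unadjusted p under 0.05, and the median was -0.22. Zfp36, which destabilises cytokine mRNA, read 10.81 and 10.67 with pA-VMO, 11.15 and 11.19 under 5'ss-VMO and 11.03 and 11.11 with control (-0.43 ± 0.07, limma adjusted p = 0.0684). Jun, a subunit of AP-1, read 11.07 and 11.02 against 11.38 and 11.41, with control at 11.25 and 11.29 (-0.35, adjusted p = 0.0687). In both genes the groups do not overlap and control is in the middle. Atf3 lay at -0.43, Fos at -0.34 and Egr1 at -0.23 (adjusted p = 0.0687, 0.113 and 0.198), and the Nr4a genes lay between -0.10 and 0.01. When arrays of the reagents were left out singly, 11 to 15 of the 23 were lower at an unadjusted p under 0.05.

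Heat shock and chaperone genes resembled them. Of 18 tested, 12 had separated arrays on the lower side and 0 on the higher, with a median of -0.17 and 0 called. Hspb1, a small heat shock protein, read 9.52 and 9.66 with pA-VMO, 10.14 and 10.07 under 5'ss-VMO and 9.78 and 9.87 with control (-0.51 ± 0.07, limma adjusted p = 0.0626). Hspa1a, the inducible Hsp70, read 10.66 and 10.58 against 11.13 and 11.02, with control at 11.03 and 11.04 (-0.46, adjusted p = 0.0626). Control thus lies near 5'ss-VMO for Hspa1a and between the reagents for Hspb1. The chaperones of the endoplasmic reticulum Hspa5 and Hsp90b1 lay at 0.01 each, with overlapping arrays. Immediate early and heat shock genes can also respond to tissue dissociation, and the part of cell handling in these values was not tested.

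The place of the control arrays is given for the same lists. Over all genes tested, both control arrays lay between the reagents in 4.95% and beyond the pA-VMO arrays, on the side away from 5'ss-VMO, in 4.59%. These places count only where the arrays of the reagents are separated, as they are in most members of these lists. Among separated genes lower with pA-VMO the shares were 8.82% between and 12.4% beyond pA-VMO. Among lower genes at an unadjusted p under 0.05 they were 22.2% and 10.9%. Of the 29 effectors, control lay beyond pA-VMO in 19, between in 1 (Dtx3l) and overlapping a reagent in 8. For most effectors the order was therefore control, pA-VMO, 5'ss-VMO from low to high, with pA-VMO above control. Ifi27, which is counted among the 19, had the reverse order, with pA-VMO below control. Of the 23 immediate early genes, control lay between in 6 and beyond pA-VMO in 1 (Egr3), and of the 18 heat shock genes between in 4 and beyond pA-VMO in 0. Control overlapped a reagent in 11 of the immediate early and 8 of the heat shock genes. In other interferon lists control lay beyond pA-VMO in 3 of 9 GTPases, 4 of 13 nucleic acid sensors and 2 of 18 regulators. Against each gene's mean over the 6 arrays, the median effector lay at -0.22 and -0.14 with control, -0.07 and -0.02 with pA-VMO, and 0.22 and 0.25 with 5'ss-VMO. The median immediate early gene lay at 0.03 and 0.10 with control, -0.11 and -0.16 with pA-VMO, and 0.08 and 0.09 with 5'ss-VMO. Comparisons of each reagent with control share the control arrays and are not independent of each other. The difference between the lists in the place of control was not tested.

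**Figure D3:**
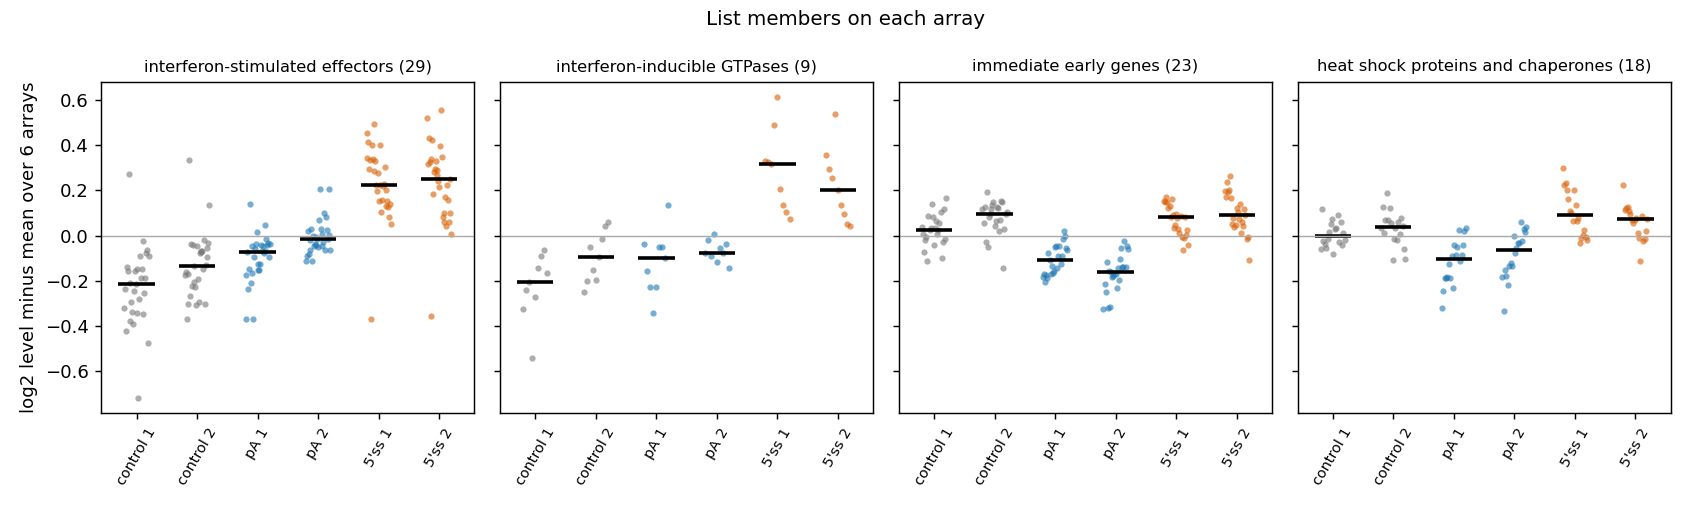
Log2 level of each list member minus that gene's mean over the 6 arrays (vertical), on each array (horizontal), for 4 gene lists, with the median as a bar. In the interferon lists the control and pA-VMO medians lie below 0 and the 5'ss-VMO medians above, while in the immediate early and heat shock lists the pA-VMO arrays are lowest and control lies between or with 5'ss-VMO.

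Several single genes outside these lists had control between the reagents. Tcim, a transcriptional and immune response regulator, read 7.78 and 7.76 with pA-VMO, 8.35 and 8.20 under 5'ss-VMO and 8.18 and 8.15 with control (-0.51 ± 0.07, limma adjusted p = 0.0513). Tnfsf9, the 4-1BB ligand, read 7.20 and 7.22 against 7.64 and 7.74, with control at 7.51 and 7.62 (-0.48, adjusted p = 0.0626). On the other side, Thbd, the thrombin-binding receptor thrombomodulin, read 10.75 and 10.85 with pA-VMO, 10.24 and 10.32 under 5'ss-VMO and 10.66 and 10.50 with control (0.52 ± 0.08, adjusted p = 0.0626). None of these genes passed, though in each the groups do not overlap. Kera, a keratan sulfate proteoglycan of tendon-like cells, was different: it read 6.52 on both pA-VMO arrays, 6.97 and 7.32 with 5'ss-VMO and 7.97 and 7.71 with control, so both reagents lay below control and pA-VMO further (-0.63 ± 0.12, adjusted p = 0.0717).

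**Figure D4:**
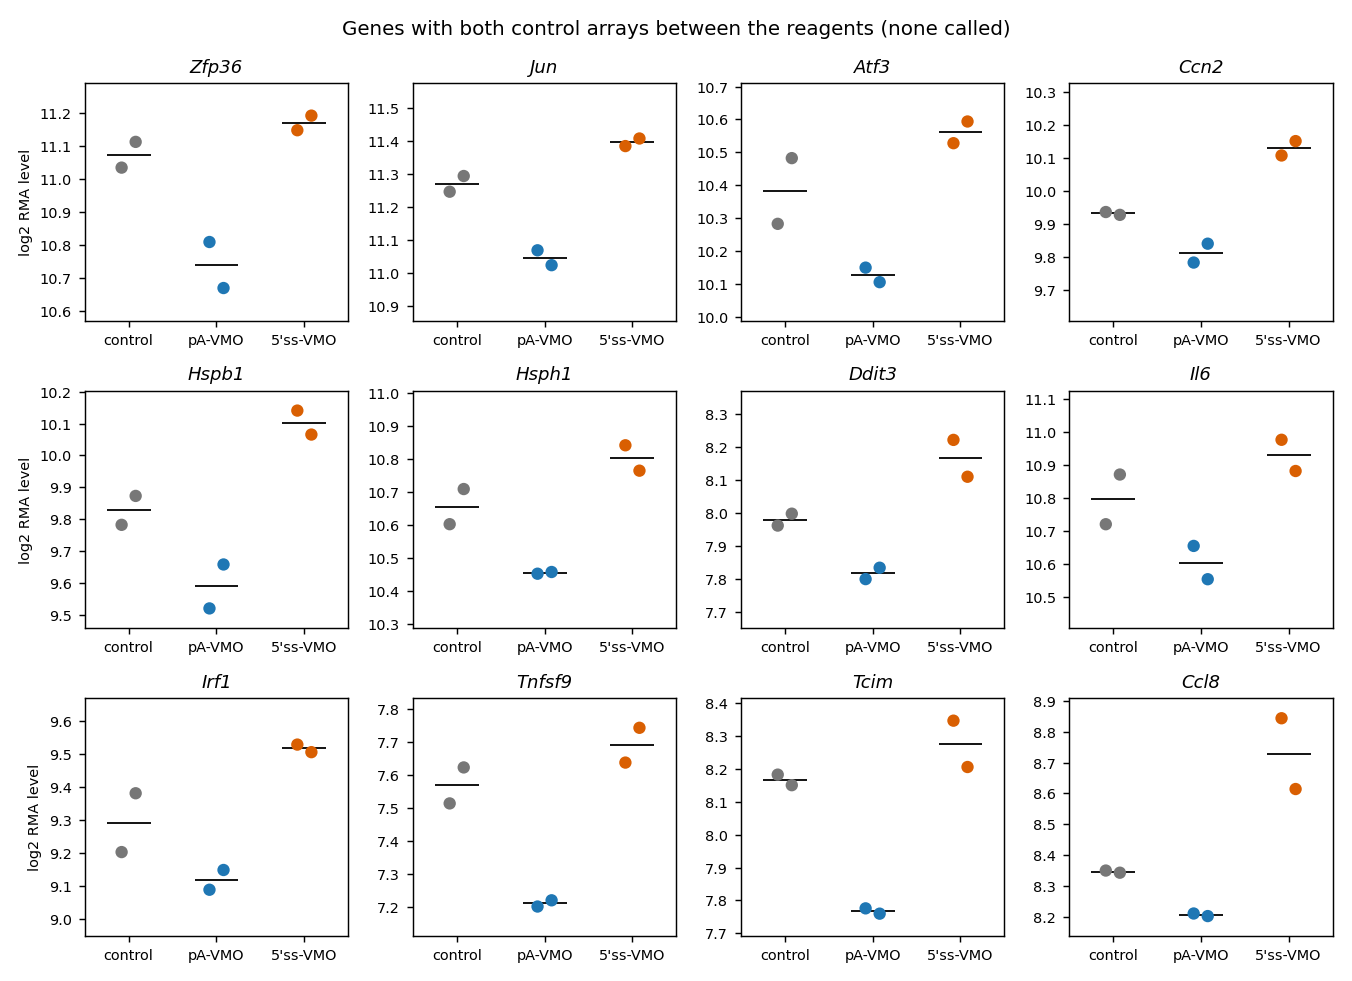
Log2 level (vertical axes, own range per gene) of 12 genes on each array (points) with the group mean (bar). The genes were chosen among those lower with pA-VMO whose control arrays both lie between the arrays of the reagents, and none passed the test. That pA-VMO is lowest and 5'ss-VMO highest in each follows from this choice. Over all genes with separated arrays, control lay between in 312 that were lower with pA-VMO and in 428 that were higher.

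Genes called higher with pA-VMO were Kcnk9 and Snora44. Kcnk9, a potassium leak channel gene, read 5.76 and 5.69 with pA-VMO, 5.23 and 5.21 under 5'ss-VMO and 5.46 and 5.49 with control. The groups do not overlap and the difference was 0.51 ± 0.06 (1.42-fold, limma adjusted p = 0.0433), but all levels are near the floor and the call was lost whichever of the 6 arrays was left out (adjusted p from 0.0802 to 0.179). The genes next in order of p, which did not pass (adjusted p from 0.0626 to 0.0687), included Eif4e1b at 0.53, the erythroid haem synthesis gene Alas2 at 0.39 and Frem2 at 0.37. Car3, a carbonic anhydrase abundant in fat cells and slow muscle fibres, was picked after its values were seen. It read 7.71 and 7.41 against 5.85 and 6.59, with control at 6.68 and 7.34, and its wide spread left a difference of 1.34 ± 0.25 that did not pass (adjusted p = 0.0694). The median level of the genes at an unadjusted p under 0.05 was 5.97 for those higher with pA-VMO and 7.35 for those lower, against 6.93 for all genes tested.

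The largest called difference belonged to a small nucleolar RNA, Snora44, which guides pseudouridine formation in other RNAs; it falls outside the naming rule and was chosen after its values were seen. Snora44 read 10.14 and 10.20 with pA-VMO, 9.84 and 10.46 with control and 8.25 and 7.81 with 5'ss-VMO. It was higher with pA-VMO by 2.14 ± 0.19 (4.40-fold, limma adjusted p = 0.00677), and was called under 12 of 13 alternatives, missing without pA-VMO replicate 1 (adjusted p = 0.0572). Snora44 lies on chromosome 4 from 132309953 to 132310069, inside the non-coding host gene Snhg12 (132308678 to 132311024). Snora16a of the same host read 10.13 and 10.05 with pA-VMO and 10.16 and 10.13 with 5'ss-VMO, a difference of -0.05 (adjusted p = 0.741). Only Snora16a and Snora44 of this host have values here, and only Snora44 was called. The host transcript Snhg12 itself and its small RNAs Snora61 and Snord99 have none. The array protocol was not designed for RNAs this short.

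Matrix genes, the products of interest in fibrosis, lay close together. Of 20 collagens 0 were called and 0 reached an unadjusted p under 0.05, with a median of -0.02, and 7 had separated arrays on the lower side and 1 on the higher. Col12a1 read 11.19 and 11.27 against 11.31 and 11.49 (-0.17, limma adjusted p = 0.381) and Col11a1 lay at -0.22 (adjusted p = 0.398). The median was -0.05 for 18 collagen-modifying enzymes, -0.01 for 28 matrix glycoproteins, -0.02 for 22 matrix proteases and inhibitors and -0.02 for 13 small leucine-rich proteoglycans. Tnc, a matrix glycoprotein of injured tissue, read 12.05 and 12.09 against 12.24 on both 5'ss-VMO arrays, with control at 11.86 and 11.87 (-0.17, adjusted p = 0.237). The 19 TGF-beta ligands, receptors and targets had a median of 0.02, with Skil at -0.18 and Smad6 at 0.25 (adjusted p = 0.206 and 0.247). Contractile genes had a median of -0.04 over 20, with 1 lower at an unadjusted p under 0.05. Without 5'ss-VMO replicate 1 the contractile median was -0.11 with 8 lower, and without 5'ss-VMO replicate 2 it was 0.04 with 0 lower.

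Growth and fate lists differed little and none had a called member. The 28 S phase genes had a median of 0.04 and the 30 genes of G2 and M 0.05, but without 5'ss-VMO replicate 1 both medians were -0.05 and without 5'ss-VMO replicate 2 both were 0.13, as replicate 2 lay higher than replicate 1. The replication licensing gene Mcm7 lay at 0.28 and the mitotic motor Kif4 at -0.29 (limma adjusted p = 0.215 and 0.141). The same 5'ss-VMO array was high for hypoxia-response genes: Bnip3 read 8.36 and 9.05 with 5'ss-VMO and 8.31 and 8.19 with pA-VMO (-0.45 ± 0.18, adjusted p = 0.256). Of 29 ribosome biogenesis genes 12 had separated arrays on the higher side and 1 on the lower (median 0.07), with Wdr12 at 0.25 and the polymerase I subunit Polr1b at 0.24 (adjusted p = 0.175 and 0.229). At an unadjusted p under 0.05, 4 were higher, against 0 when pA-VMO replicate 2 was left out (median 0.01) or 1 when 5'ss-VMO replicate 2 was (median 0.04). Among 27 readouts of Wnt, BMP and Hedgehog signalling, 11 had separated arrays on the higher side and 6 on the lower, and the secreted Wnt inhibitors Wif1 and Frzb lay at 0.38 and 0.36 (adjusted p = 0.0687 and 0.0717). Of 20 adipogenic and lipid droplet genes 6 had separated arrays on the higher side and 3 on the lower (median 0.05), with the lipid droplet coat gene Plin1 at 0.33 (adjusted p = 0.158).

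**Figure D5:**
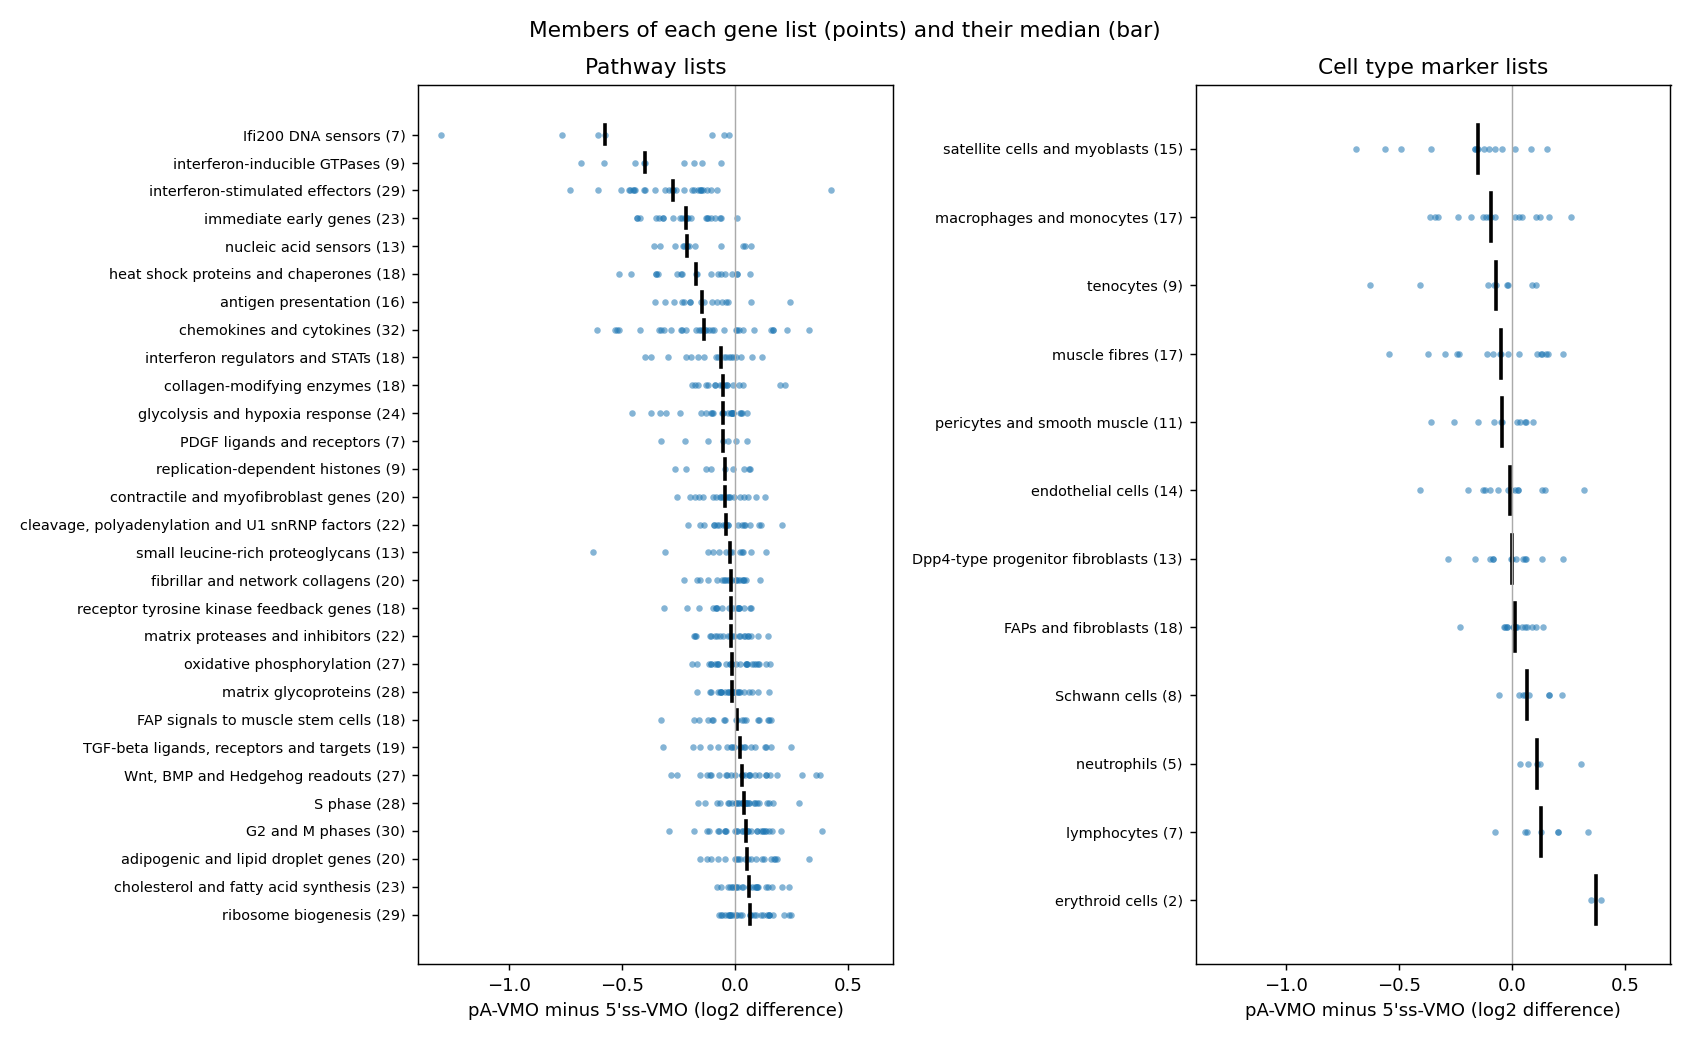
Difference pA-VMO minus 5'ss-VMO (log2, horizontal) of the tested members (points) of each pathway list and cell type marker list (vertical, number tested in brackets), with the median as a bar. The Ifi200, GTPase, effector, immediate early, nucleic acid sensor and heat shock lists have the lowest medians, from -0.57 to -0.17, and interferon regulators, matrix, cell cycle and FAP marker lists lie near 0. The Ifi200 median depends on the filter: at the 50th percentile 5 members remained, with a median of -0.10.

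Markers of the labelled cell type were above the brightness floor in 18 of 18 cases, and as a list they lay close together with the reagents. The mean log2 level of 18 FAP and fibroblast markers was 10.85 and 10.85 with pA-VMO and 10.87 and 10.81 with 5'ss-VMO, with a median difference of 0.01 and 0 called. Levels of different probe sets cannot be ranked, so these means do not weigh one cell type against another. Below the floor were 8 of the 15 lymphocyte markers and 5 of 10 neutrophil markers, including S100a8 and Ly6g, and Ccr2 and Cd163 among the macrophage markers.

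Of the markers of other cell types 0 were called. Of 17 macrophage markers tested, 6 had separated arrays on the lower side and 3 on the higher, with a median of -0.10 that shrank to -0.03 when pA-VMO replicate 2 was left out, or to -0.04 when 5'ss-VMO replicate 1 was. The complement genes C1qa and C1qc lay at -0.36 and -0.33 (limma adjusted p = 0.0687 and 0.0955), while Cd68 lay at 0.16 and Csf1r at 0.01. Satellite cell and myoblast markers had 9 of 15 with separated arrays on the lower side and a median of -0.15. Chrna1, the muscle acetylcholine receptor subunit, read 6.49 and 6.56 with pA-VMO, 7.35 and 7.08 under 5'ss-VMO and 6.54 and 6.66 with control (-0.69 ± 0.09, adjusted p = 0.0513). The fusion gene Mymk lay at -0.49 (adjusted p = 0.0687), Pax7 at -0.05 and Myod1 at -0.10. Of 17 fibre markers, 7 had separated arrays on each side, with a median of -0.05. At an unadjusted p under 0.05, 5 fibre markers were lower (29.4%) and 0 higher, against 7.11% and 8.81% of all genes tested. Other lists leaned higher with pA-VMO: 4 of 7 lymphocyte markers had separated arrays on that side and 0 on the lower (median 0.13), as did 3 of 5 neutrophil markers and 0 on the lower (median 0.11). For Schwann cells it was 4 of 8 and 1 on the lower (median 0.06), and for erythroid cells 2 of 2 (median 0.37). These markers were dim, with median levels of 5.71 for lymphocytes and neutrophils, 6.19 for Schwann cells and 5.76 for erythroid cells. The median level was 6.93 over all genes tested and 5.97 over those higher with pA-VMO at an unadjusted p under 0.05. Above the 50th percentile of level, 0 lymphocyte, neutrophil or erythroid markers remained. At an unadjusted p under 0.05, 3 lymphocyte and 2 Schwann cell markers were higher, and 0 of either without pA-VMO replicate 1. In endothelium Cdh5 lay at -0.41 and Vwf at 0.32 (adjusted p = 0.0687 and 0.123). The part of other cells in the interferon and cytokine values was not tested.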

How the data were processed

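Affymetrix Mouse Gene 1.0 ST arrays were read from 100 ng of total RNA, per the labels' protocols. The deposited log2 values were made by the authors with Expression Console and RMA, per the submitters' processing notes, whose version and settings are not given here. RMA makes array distributions alike, so a change in total RNA cannot be seen. Of 35556 probe sets 21789 have 1 gene symbol, 1621 several and 12146 none, and only the first were used. Genes with a mean below log2 5.209, the 25th percentile, were not tested. limma 3.58.1 (R 4.3.3) was fitted to all 6 arrays with 3 group means, giving 3 residual degrees of freedom. The fit was tested on simulated data. P-values measure the spread between pools of mice. Named were the PDGF genes, up to 15 genes per direction (called ones by size, then the smallest p with separated arrays) and up to 4 of the smallest p per list, without predicted genes and small RNAs. Exceptions are stated. The members and the 41 gene lists were chosen with earlier results of these data known. Alternatives covered the filter, the variance model, centring, probe sets, arrays left out and a replicate block.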

Additional observations from a re-analysis of the deposited data

How the results depend on the processing

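The count of called genes depended on the variance model and the filter, and the cause was not tested. From 9 calls (2 higher and 7 lower with pA-VMO), a variance trend gave 197 (38 higher, 159 lower; all 9 included), testing only genes above the 50th percentile 102 (16 and 86), the mean of all probe sets of a gene 15 (13 lower), and no filter 3 (1 and 2). With the 4 reagent arrays alone 7 were called (1 higher and 6 lower), of which 5 are among the 9. Deviations of the same-numbered pA-VMO and 5'ss-VMO arrays correlated at -0.03. For control and pA-VMO the value was -0.10, and for control and 5'ss-VMO 0.02. With 2 arrays per group these values cannot decide whether replicate numbers pair the pools. The replicate block gave 23 calls (20 lower), with all 9 among them. Leaving out 1 array gave from 1 to 18 calls in all, 0 to 8 higher and 1 to 10 lower; the lowest came without pA-VMO replicate 1 (Ifi208 alone) and the highest without 5'ss-VMO replicate 2 (without pA-VMO replicate 2 it was 12, without 5'ss-VMO replicate 1 it was 3). The Pdgfra difference ranged from -0.01055 (without pA-VMO replicate 2) to 0.02225 and was -0.0061 without 5'ss-VMO replicate 2. Signs also turned for Pdgfb (-0.016055 to 0.125815) and Pdgfrb (-0.1183 to 0.0175), Wnt2 (-0.004465 to 0.271755) and Elane (-0.03863 to 0.18249) as single arrays were left out, none of them called. With the trend, 14 of the 29 interferon-stimulated effectors, 9 of the 23 immediate early genes and 7 of the 18 heat shock genes were called lower. Every called gene kept its sign in all settings that tested it. The number of arrays limits precision, and dim genes lie close to background.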

Other observations

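Small nucleolar RNAs leaned lower with pA-VMO and microRNA genes leaned higher. Over all genes tested, 23.7% had separated arrays with lower values and 25.5% with higher values. At an unadjusted p under 0.05 the shares over all genes were 7.11% lower and 8.81% higher. Of 19 box H/ACA small nucleolar RNAs tested, 9 had separated arrays with lower values under pA-VMO and 2 with higher values (median -0.09), with 1 called (Snora44, higher). Of 29 box C/D small nucleolar RNAs tested, 18 had separated arrays with lower values under pA-VMO and 0 with higher values, with a median difference of -0.12, and 0 were called by limma, with 10 lower at an unadjusted p under 0.05. Of 116 microRNA genes, 51 had separated arrays on the higher side and 14 on the lower, with a median of 0.08. No microRNA gene was called by limma (0), and 21 were higher and 9 lower at an unadjusted p under 0.05. These RNAs are shorter than the transcripts the array was made for. Over all genes at an unadjusted p under 0.05, the median level was 5.97 for those higher with pA-VMO and 7.35 for those lower. The part of signal level in the leaning of these RNAs was not tested.

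The place of control was uneven between directions for the genes with the smallest p. Among the 100 genes with the smallest p that were higher with pA-VMO, both control arrays lay between the reagents in 73, and beyond pA-VMO in 1. Among the 100 with the smallest p that were lower, control lay between in 37 and beyond pA-VMO in 25. Both sets were picked by the difference between the reagents, and a wide gap leaves more room for control to lie between. These counts are thus no independent result, and the unevenness between the directions was not tested. The median level was 5.81 for the first set and 7.18 for the second. In wider sets the shares with control between were closer. At an unadjusted p under 0.05 they were 25.9% of the higher and 22.2% of the lower genes. With separated arrays they were 11.2% and 8.82%. The share of all genes tested was 4.95%, where genes with overlapping arrays cannot count. Control lay beyond pA-VMO in 2.81% of the higher and 10.9% of the lower genes at an unadjusted p under 0.05.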
